A study of Mus musculus with 6 samples.

Results

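The genes described here encode the axon guidance systems of ephrins and Eph receptors, of Slits and Robos, and of netrins with their receptors, in embryonic mouse cortical cells given an excess of the microRNA miR-3607. They are a list of 40 genes, taken by gene family: 14 Eph receptors, 8 ephrins, 3 Slits, 3 Robos, 3 netrins and draxin, 6 receptors of netrins, and the repulsive guidance molecules Rgma and Rgmb. Of the 40 symbols, 39 were matched to one of the 54146 genes in the count tables, and Ntn3 was not analysed here. The filter on low counts left 33 members among 16897 genes tested.

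The data were 6 RNA-seq libraries, 3 from cells electroporated with a hairpin of miR-3607 (Mir) and 3 from cells given a scrambled hairpin with no match in the mouse genome (Scr). In both groups wild-type embryos received the hairpin plasmid (U6 promoter, 1 µg/µl) together with a plasmid for green fluorescent protein (GFP; CAG promoter, 0.7 µg/µl) in the lateral ventricle at embryonic day E14.5, and sorting of GFP-positive cortical cells followed at E15.5, after 24 hours. Cells of 2 embryos were pooled for a library, with a separate pool each, and the labels give the strain once as ICR and once as C57BL/6. The U6 and CAG promoters are not specific to a cell type, so they do not limit the sorted cells to a type. The sort selects GFP-positive cells, and which cell types took up plasmid was not measured. The mature microRNA was not measured by these libraries, so its excess could not be checked in them.

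Eph receptors are receptor tyrosine kinases that bind ephrins on neighbouring cells, and the contact signals into both cells, often as repulsion. Ephrin-A proteins are held by a lipid anchor and ephrin-B proteins span the membrane. Slits are secreted repellents read by Robo receptors. Netrins attract through Dcc and Neo1 and repel through Unc5 receptors. In the developing cortex these systems act on progenitor attachment, neuron migration and the paths of axons. The comparison asks whether an excess of miR-3607 changed their transcripts, and whether ligands and receptors of a system moved alike. The title of the series places the microRNA upstream of the Wnt/β-catenin pathway.

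MicroRNAs find their targets mainly by the seed, bases 2 to 8 of the mature strand, which pairs with sites in 3′ untranslated regions (3′ UTRs). The strand encoded by the hairpin is shown with its seed in capitals, as DNA letters read from the cloned oligonucleotide. Below it stand the 4 sites in tested members that match the seed together with the A opposite base 1 (8 bases, TCACATGA, in capitals). Sites are from GENCODE M21 on GRCm38, all on the minus strand and written 5′ to 3′ along the transcript.
miR-3607 strand: gCATGTGAtgaagcaaatcagt
Epha4, chr1:77368928-77368950: ggaaagagTCACATGAtatacaa
Robo2, chr16:73893481-73893503: tcttcagaTCACATGAtggctta
Neo1, chr9:58875434-58875456: ctagctggTCACATGAcggcacc
Unc5d, chr8:28650213-28650235: tcataataTCACATGAggtaata

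The 8-base matches began at bases 1553, 2331, 1826 and 2541 of the 3′ UTRs of Epha4, Robo2, Neo1 and Unc5d. The 4 genes encode receptors. Epha8 also held an 8-base match but did not pass the low-count filter. With Epha8, 5 of 39 member 3′ UTRs held an 8-base match, 12.8%, against 2.63% of the 3′ UTRs of all genes. Counting matches of 7 bases as well (TCACATG or CACATGA, which overlap within TCACATGA), 9 of 39 member 3′ UTRs held at least 1 match, 23.1%, against 15.6% of the 3′ UTRs of 20650 genes. Member 3′ UTRs were longer, with a median of 1538 bases against 801 bases over all genes. Among 3′ UTRs within 20% of the same length, an 8-base match was held by 6.51% for Epha4, 6.66% for Robo2, 4.71% for Neo1 and 12.1% for Unc5d. A match of letters is a description and does not show that the microRNA binds there.

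The libraries held 14671557 to 15847663 counts in genes in the Mir group and 12724511 to 16684038 in the Scr group. The labelled cell type, cortical progenitors, was checked against its markers. Summed levels of 9 radial glia markers were 1569 to 2327 CPM (counts per megaread of normalized library size) in Mir and 1233 to 1842 CPM in Scr, and those of 7 intermediate progenitor markers were 2949 to 4323 CPM in Mir and 2105 to 3302 CPM in Scr. Markers of excitatory cortical neurons were also abundant, 4417 to 4818 CPM in Mir and 5107 to 5922 CPM in Scr over 10 genes. Of the 10, 7 were lower and 3 (Tbr1, Neurod2 and Slc17a6) higher in mean in Mir. The 7 lower include the general neuronal genes Tubb3 and Dcx, so the sum is not specific to excitatory neurons. Markers of inhibitory neurons summed to 201 to 475 CPM in Mir and 364 to 1332 CPM in Scr over 10 genes, with all 10 lower in mean in Mir and Scr replicate 2 highest. Markers of endothelial cells summed to 4.66 to 45.2 CPM in Mir and 16.7 to 241 CPM in Scr over 12 genes, with all 11 tested lower in mean. In Mir replicate 1, 9 of these 12 were at 0 counts, and in Mir replicate 2, 8 were. Lower in mean in Mir were also 8 of 8 tested microglia markers, 5 of 6 of mural cells, 5 of 5 of erythroid cells and 3 of 3 of Cajal-Retzius cells. Of all genes tested, 51.2% were lower. The summed levels of the microglia, mural and erythroid lists overlapped between the groups, and those of the Cajal-Retzius list did not. Meningeal fibroblast markers summed to 207 CPM in Mir replicate 2, against 1.02 to 29.0 CPM in the other libraries. Fewer cells of a type and less RNA per cell cannot be told apart in such libraries.

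The 33 tested members spanned a wide range of levels per length, from 0.119 CPM per kb of exon for Unc5c to 65.8 for Efnb1 as means over all 6 libraries. Of these, 13 were above 10 CPM per kb, 15 were between 1 and 10, and 5 were below 1. On this scale Efnb1 and Efnb2, ephrins of the B class, were at 76.4 ± 9.13 and 32.1 ± 2.68 CPM per kb in Mir and at 55.3 ± 5.79 and 31.5 ± 0.322 CPM per kb in Scr (SD, n = 3 each). The receptors Epha3 and Epha4 were at 63.1 ± 9.85 and 32.8 ± 4.59 CPM per kb in Mir and at 52.3 ± 13.7 and 28.7 ± 4.11 CPM per kb in Scr. Slit1 and Slit2 had group means of 0.330 to 3.34 CPM per kb, while their receptor Robo2 was at 16.6 CPM per kb in Mir and 16.7 in Scr. Ntn1, the main attractant of the netrin family, averaged 0.456 CPM per kb in Mir and 0.326 in Scr, while its receptors Dcc and Neo1 were at 4.28 and 10.2 CPM per kb in Mir and at 4.40 and 10.9 in Scr. Among the other netrin system genes, Unc5d was at 16.4 CPM per kb in Mir and 13.9 in Scr, and Ntn4 at 6.24 in Mir and 5.66 in Scr.

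The 6 members that did not pass the filter were Epha1, Epha2, Epha8, Epha10, Slit3 and Robo3. Their levels ran from 0 to 2.82 CPM, the highest being Slit3 in Scr replicate 2. Outside Slit3, no value of these genes exceeded 1.23 CPM.

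**Figure D1:**
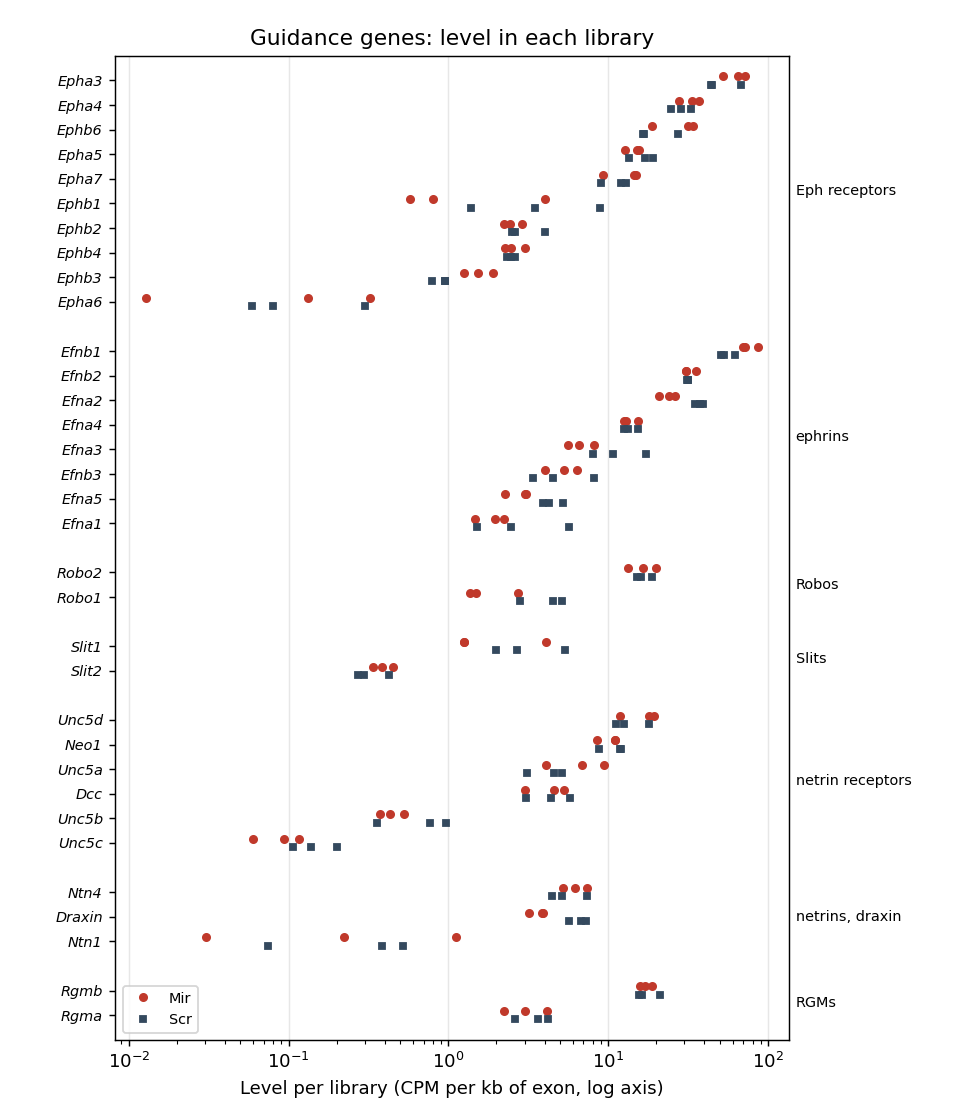
Level of each of the 33 tested guidance genes in each library, in CPM per kb of exon on a log axis, with 3 Mir points (circles) above 3 Scr points (squares) for each gene. Efnb1 and Epha3 are the most abundant members, and the libraries of both groups overlap for 27 of the 33 genes.

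Among the ephrins, all 5 A-class ligands averaged lower in Mir, 3 of them with an unadjusted p under 0.05. The abundant B-class ligand Efnb1 averaged higher. The groups overlapped for 5 of the 8 ephrins and for 9 of the 10 tested Eph receptors, where 20% of all genes tested did not overlap. No member passed edgeR's quasi-likelihood test with Benjamini-Hochberg adjustment over all genes tested, which called 0.00592% of genes (1 of 16897, lower in Mir). The smallest adjusted p among the members was 0.168. At an unadjusted p under 0.05 there were 7 members, 21.2% of those tested. Of the 7, 2 were higher in Mir, where 6.57% of all genes tested were, and 5 were lower, where 7.93% of all genes tested were. The 3 Mir libraries lay wholly outside the range of the 3 Scr libraries for 6 members, 18.2%, against 20% of all genes tested. They lay above for 2 members (9.72% of all genes) and below for 4 (10.3% of all genes). DESeq2, run as an alternative on the same genes, called 4 of the 30 members to which it gave an adjusted p, against 4.37% of all genes with one. Efnb1 was called higher, beside 1.86% of all genes, and Efna2, Robo1 and Draxin lower, beside 2.51%. The limma-voom alternative called 0 members and 0% of all genes. A p that misses the threshold does not show that levels were the same. Of the 33, 14 had a higher mean in Mir (48.8% of all genes) and 19 a lower one (51.2% of all genes). The median log2 fold change of the 33 members was -0.02, and that of all genes tested was -0.01.

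**Figure D2:**
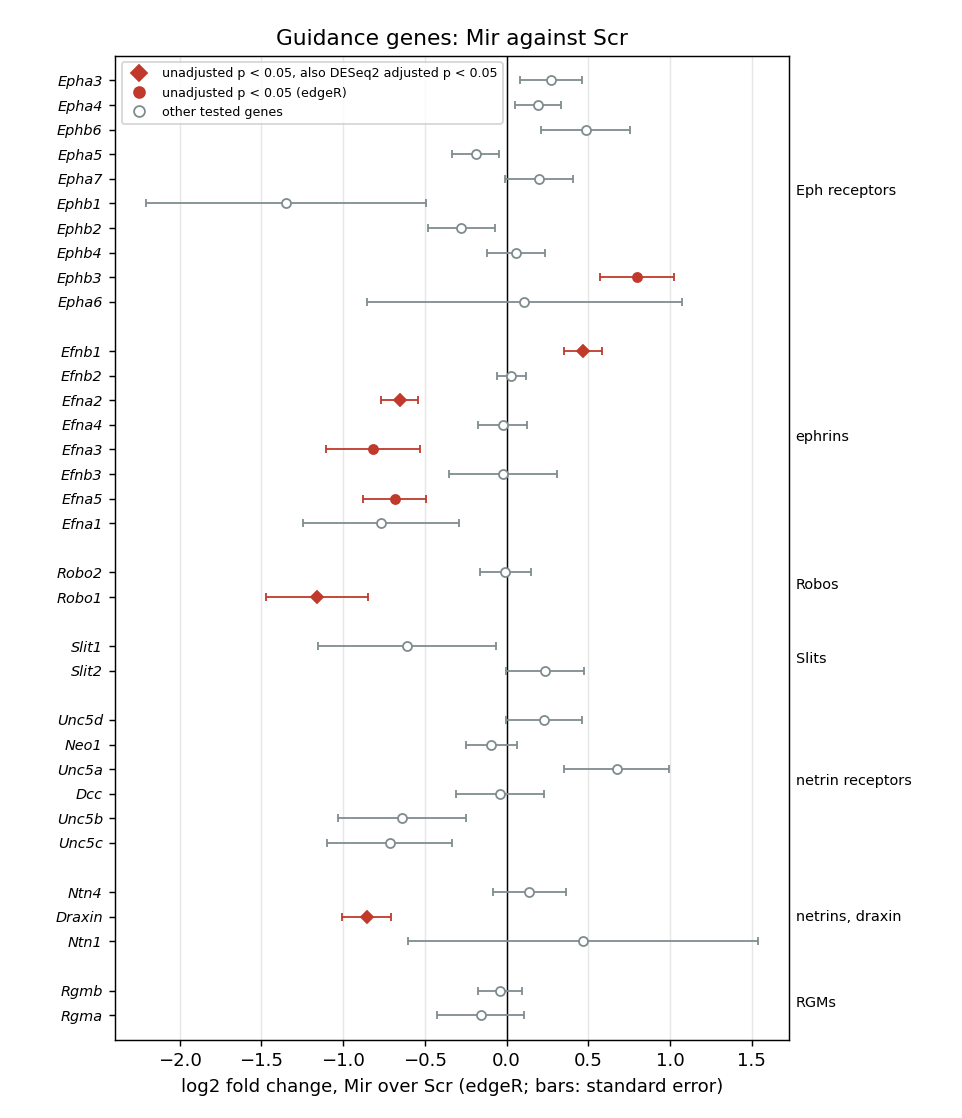
The log2 fold change, Mir over Scr, of each tested guidance gene from edgeR, with bars for the standard error. Filled symbols mark the 7 genes with an unadjusted p under 0.05, and diamonds the 4 that DESeq2 also called. The 5 A-class ephrins lie left of 0.

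Efna2 encodes ephrin-A2, a lipid-anchored ligand of EphA receptors (GRCm38 chr10:80179482-80190010). It was at 51.5, 44.0 and 56.1 CPM in the Mir libraries, against 80.4, 83.5 and 74.5 CPM in the Scr libraries (each group here and after this in the order of replicates 1, 2 and 3). All Mir libraries lay below all Scr libraries. The summed markers of inhibitory neurons overlapped between the groups and those of excitatory neurons did not, and the part of these cells was not tested. The log2 fold change of Efna2 was -0.65 ± 0.11, and the adjusted p was 0.168 in edgeR and 0.000524 in DESeq2. DESeq2 called it also without each library in turn, with adjusted p-values from 6.51e-05 to 0.0165.

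Efna5, which encodes ephrin-A5, a repellent of EphA-bearing axons and cells, was at 12.1, 9.13 and 12.3 CPM in Mir and at 21.03, 17.2 and 15.7 CPM in Scr. These groups did not overlap either. Its log2 fold change was -0.68 ± 0.19, and the adjusted p was 0.231 in edgeR and 0.0570 in DESeq2. Efna3, encoding ephrin-A3, was at 13.7, 16.03 and 19.9 CPM in Mir and at 19.5, 41.8 and 26.1 CPM in Scr. The highest Mir library lay just above the lowest Scr library, and Scr replicate 2 stood above the rest. Its log2 fold change was -0.82 ± 0.29 (edgeR adjusted p 0.282) and -0.47 without Scr replicate 2, and whether inhibitory neurons, whose markers were also highest there, contribute was not tested. Efna3 shares 344 of its 2434 exon bases with the antisense gene Gm15998, and since the libraries do not mark strand its counts are uncertain.

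The remaining A-class ephrins gave no such separation. Efna1, which is also expressed by vessels, was at 3.44 ± 0.702 CPM in Mir and 5.88 ± 3.97 CPM in Scr (SD, n = 3 each), with its highest value, 10.4 CPM, in Scr replicate 2. That library was also highest in the summed markers of endothelial, mural and erythroid cells and of both neuron classes, whose part was not tested. Efna4 was at 21.7 ± 2.39 CPM in Mir and 22.0 ± 2.37 CPM in Scr, a log2 fold change of -0.02 ± 0.15, and it shares 168 of its 1599 exon bases with the antisense gene 4731419I09Rik. All 5 A-class ephrins had a negative log2 fold change, where 51.2% of all genes tested had one. Their median was -0.68.

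Efnb1 encodes ephrin-B1, a membrane-spanning ephrin known to act in cortical progenitors of the mouse (chrX:99136130-99148991). Its levels were 299.8, 249.6 and 241.8 CPM in Mir, against 213.6, 182.6 and 176.3 CPM in Scr. All Mir libraries lay above all Scr libraries. For Efnb1 the log2 fold change was 0.47 ± 0.12, and the adjusted p was 0.213 in edgeR and 0.0193 in DESeq2. The DESeq2 call was lost without Mir replicate 1 (0.172), Mir replicate 2 (0.113), Scr replicate 2 (0.0575) or Scr replicate 3 (0.137). Radial glia and intermediate progenitor markers were on average higher in Mir, and their part in the level of Efnb1 was not tested.

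Efnb2, the ligand of arterial vessels and also of neural cells, was at 209.2, 209.8 and 241.3 CPM in Mir and at 215.4, 213.5 and 217.9 CPM in Scr. The groups overlapped, and the log2 fold change was 0.03 ± 0.09 (edgeR adjusted p 0.909), the smallest standard error among the members. Efnb3 had a log2 fold change of -0.02 ± 0.33. Summed over a class, ephrin-A transcripts stood at 100.9, 96.3 and 113.0 CPM in Mir and at 150.1, 174.0 and 139.3 CPM in Scr. Ephrin-B transcripts summed to 521.9, 479.8 and 500.0 CPM in Mir and to 439.9, 421.9 and 408.6 CPM in Scr. The groups do not overlap in either sum, and they point opposite ways. Efna2 was the largest part of the ephrin-A sum in each library, and Efnb1 and Efnb2 made up most of the ephrin-B sum. No test was made on these sums.

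Of the 10 tested Eph receptors, 7 had a higher mean and 3 a lower one in Mir. Their median log2 fold change was 0.15, beside -0.34 for the 8 ephrins. Only Ephb3 had an unadjusted p under 0.05. Ephb3, a receptor of B-class ephrins, was at 8.33, 12.6 and 10.1 CPM in Mir, against 5.22, 6.30 and 6.32 CPM in Scr. All Mir libraries lay above all Scr libraries. Its log2 fold change was 0.80 ± 0.22, from 67 to 198 counts per library, and the adjusted p was 0.229 in edgeR and 0.0709 in DESeq2.

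The 2 receptors of highest level overlapped between the groups. Epha3 was at 624.0, 566.6 and 455.6 CPM in Mir and at 591.5, 389.9 and 381.2 CPM in Scr, a log2 fold change of 0.27 ± 0.19 (edgeR adjusted p 0.545). Epha4, whose 3′ UTR holds an 8-base seed match, was at 297.1, 271.1 and 224.2 CPM in Mir and at 265.6, 229.4 and 199.6 CPM in Scr. Its log2 fold change was 0.19 ± 0.14 (edgeR adjusted p 0.566). Neither gene separated the groups. Epha5, Epha7 and the kinase-inactive receptor Ephb6 were at -0.19 ± 0.15, 0.20 ± 0.21 and 0.48 ± 0.27 on the log2 scale. Ephb2 and Ephb4 were at -0.28 ± 0.21 and 0.06 ± 0.18, and the scarce Epha6 at 0.11 ± 0.96.

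Ephb1 had the lowest log2 fold change of the members, -1.35 ± 0.86. It was at 5.60, 4.02 and 28.3 CPM in Mir, against 9.74, 62.3 and 24.4 CPM in Scr. Mir replicates 1 and 2 were lowest and Scr replicate 2 was highest, as for the inhibitory neuron markers, which summed to 217, 201 and 475 CPM in Mir and to 364, 1332 and 491 CPM in Scr. The part of inhibitory neurons in the level of Ephb1 was not tested. The edgeR adjusted p was 0.506.

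In the Slit and Robo system the receptor Robo1 averaged lower in Mir while Robo2 was level with Scr. Robo1 (chr16:72308306-73046095), a Slit receptor of migrating neurons and growing axons, was at 24.5, 22.7 and 45.1 CPM in Mir, against 46.5, 84.9 and 74.3 CPM in Scr. The groups did not overlap, but Mir replicate 3 lay close under Scr replicate 1. The log2 fold change was -1.16 ± 0.31, a level 0.448 times that of Scr, and the adjusted p was 0.223 in edgeR and 0.00929 in DESeq2. DESeq2 did not call it without Mir replicate 1 (0.129), Mir replicate 2 (0.175), Scr replicate 2 (0.0666) or Scr replicate 3 (0.0991). Robo1 and the summed inhibitory neuron markers were both lowest in Mir replicates 1 and 2 and highest in Scr replicate 2, and the part of those cells was not tested.

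Robo2 (chr16:73891839-74411825), which carries an 8-base seed match, was at 340.0, 281.8 and 224.9 CPM in Mir and at 321.1, 272.2 and 257.4 CPM in Scr. The ranges overlapped almost wholly, with a log2 fold change of -0.01 ± 0.16 (edgeR adjusted p 0.990). Robo1 and Robo2 thus had different fold changes in the same libraries, a difference that was not tested. Among the ligands, Slit1 was at 7.44, 7.41 and 24.2 CPM in Mir and at 11.8, 31.6 and 15.8 CPM in Scr, with Mir replicate 3 and Scr replicate 2 above the others. Its log2 fold change was -0.61 ± 0.54, and it was -1.42 without Mir replicate 3 and -0.10 without Scr replicate 2. Slit2 was at 9.73, 11.4 and 8.55 CPM in Mir and at 7.56, 6.88 and 10.8 CPM in Scr, a log2 fold change of 0.23 ± 0.24. Neither Slit had an unadjusted p under 0.05.

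**Figure D3:**
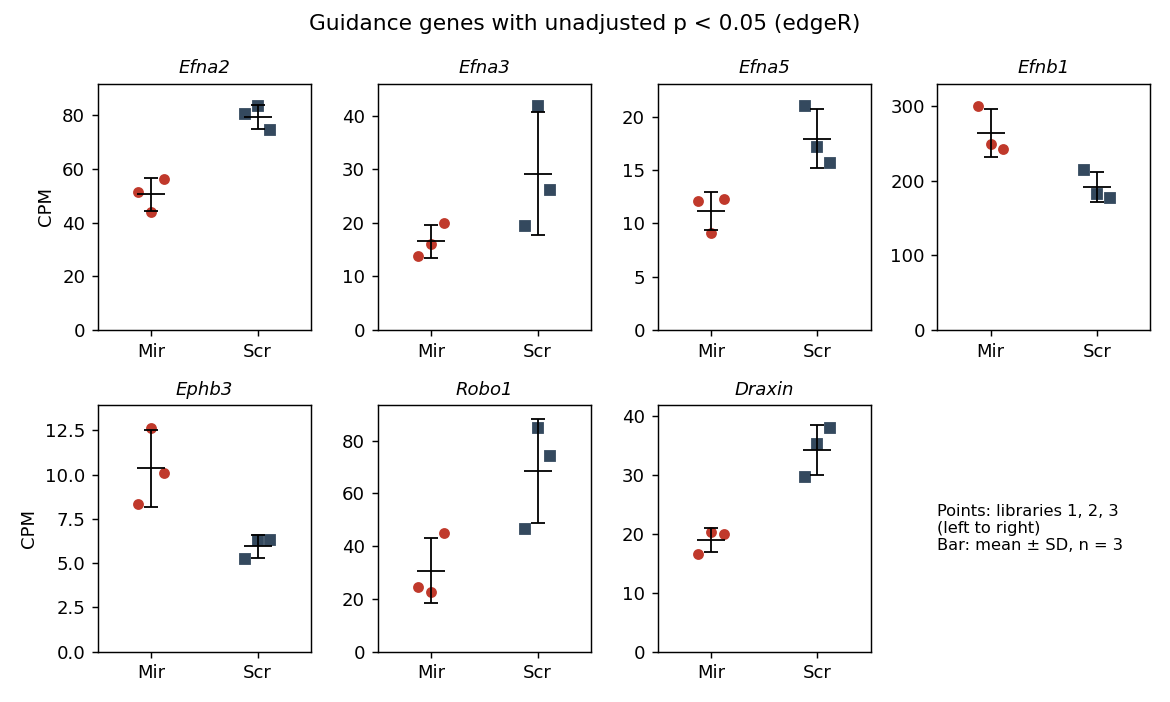
CPM in each library for the 7 guidance genes with an unadjusted p under 0.05, Mir left of Scr, with the mean and SD of 3 libraries as bars and each axis starting at 0. The groups overlap for Efna3 alone among the 7, where the highest Mir library lies just above the lowest Scr library.

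In the netrin system the secreted repellent draxin averaged lower in Mir and the netrin receptors did not separate. Draxin (chr4:148098437-148130698), which binds Dcc and netrin-1, was at 16.5, 20.3 and 19.9 CPM in Mir, against 29.6, 35.2 and 38.0 CPM in Scr. All Mir libraries lay below all Scr libraries with a gap larger than the range within either group. The log2 fold change was -0.86 ± 0.15, a level 0.552 times that of Scr, and the adjusted p was 0.168 in edgeR and 0.000393 in DESeq2. DESeq2 called it without each library in turn, with adjusted p-values from 0.000179 to 0.0186. The part of excitatory and inhibitory neurons in the level of Draxin was not tested.

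Ntn4, a netrin of basement membranes, was at 23.0, 19.5 and 27.5 CPM in Mir and at 27.6, 16.7 and 19.3 CPM in Scr. The groups overlapped, with a log2 fold change of 0.14 ± 0.22. Ntn1 was counted 3 to 103 times per library, at 1.40, 0.192 and 6.99 CPM in Mir and at 0.467, 3.26 and 2.41 CPM in Scr, too variable to place (log2 fold change 0.47 ± 1.07).

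Of the 6 netrin receptors, 2 had a higher and 4 a lower mean, with a median of -0.07. None had an unadjusted p under 0.05. Unc5d, a receptor known from multipolar cells of the subventricular zone, was at 177.1, 167.0 and 108.5 CPM in Mir and at 166.5, 102.7 and 116.5 CPM in Scr. Neo1, the receptor shared by netrins and repulsive guidance molecules, was at 95.5, 96.3 and 74.4 CPM in Mir and at 104.9, 103.4 and 75.8 CPM in Scr. Both carry an 8-base seed match, and both groups overlapped, with log2 fold changes of 0.23 ± 0.23 and -0.09 ± 0.16. Dcc, the attractive receptor, was at -0.04 ± 0.27. Unc5a was at 28.6, 39.3 and 16.96 CPM in Mir and at 21.4, 19.0 and 12.9 CPM in Scr, a log2 fold change of 0.67 ± 0.32 with overlap of the groups (edgeR adjusted p 0.385). Unc5b, a receptor of vessels, and Unc5c were at -0.64 ± 0.39 and -0.72 ± 0.38.

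The repulsive guidance molecules, lipid-anchored ligands of Neo1 that also bind bone morphogenetic proteins, overlapped between the groups. Rgmb was at 144.2, 130.9 and 121.0 CPM in Mir and at 125.0, 162.3 and 120.1 CPM in Scr, a log2 fold change of -0.04 ± 0.14. Rgma was at 12.3, 16.7 and 22.9 CPM in Mir and at 14.6, 20.1 and 23.2 CPM in Scr, a log2 fold change of -0.16 ± 0.27.

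Set beside the seed matches, the 4 tested members with an 8-base match had log2 fold changes from -0.09 to 0.23, with a median of 0.09, and 0 of them had an unadjusted p under 0.05. The median over all 339 tested genes with such a match was -0.05. Over the 10548 tested genes whose 3′ UTR held no match it was 0.00205, a difference that was not tested. The 4 members with 7-base matches alone, Epha6, Efnb2, Unc5a and Unc5b, ran from -0.64 to 0.67. The 7 members with an unadjusted p under 0.05 were all among the 25 without a match, whose median was -0.04. Those 25 are most of the 33 tested members. The share of all genes at that p was not taken by match, so the count is not a result about the seed.

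Ligands and receptors were set side by side within each system. For ephrins and Eph receptors, the ligand median was lower than the receptor median (-0.34 and 0.15). By class the ligand medians differed, -0.68 for the 5 ephrin-A genes and 0.03 for the 3 ephrin-B genes. The receptor medians were 0.19 for the 5 tested EphA genes and 0.06 for the 5 EphB genes. Relative to the Scr mean, the ephrin median was -0.38, -0.41 and -0.19 in the Mir libraries, against 0.01, 0.03 and -0.11 in the Scr libraries, on log2 (CPM + 0.5). The Eph receptor median was 0.38, 0.14 and -0.04 in Mir and -0.01, 0.09 and -0.21 in Scr. On this scale, which sets the Scr mean of each gene to 0, the ephrin values of the groups did not overlap and the receptor values did. The summed CPM of the 8 ephrins did overlap, at 622.8, 576.0 and 612.9 in Mir and at 590.0, 595.9 and 547.8 in Scr. Without Scr replicate 1 or Scr replicate 3 the Eph receptor median was -0.08 or -0.04, and without Scr replicate 2 the ephrin median was -0.07. The low-count filter was rerun in each of these fits, which tested 17463, 17351 and 17320 genes. Scarce receptors can therefore enter a class, and the 2 receptor medians need not cover the 10 receptors of the main fit. Without Scr replicate 1 Epha3 and Epha4 were at 0.50 and 0.30. For Slits and Robos the medians of 2 tested genes each were -0.19 and -0.58, and for netrins with draxin (3 genes) and netrin receptors (6 genes) 0.14 and -0.07. The netrin median was -0.91 without Mir replicate 3, and the Slit median -0.56. The ligand medians of these systems rest on genes that lie on both sides of 0, and no difference between ligands and receptors was tested.

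**Figure D4:**
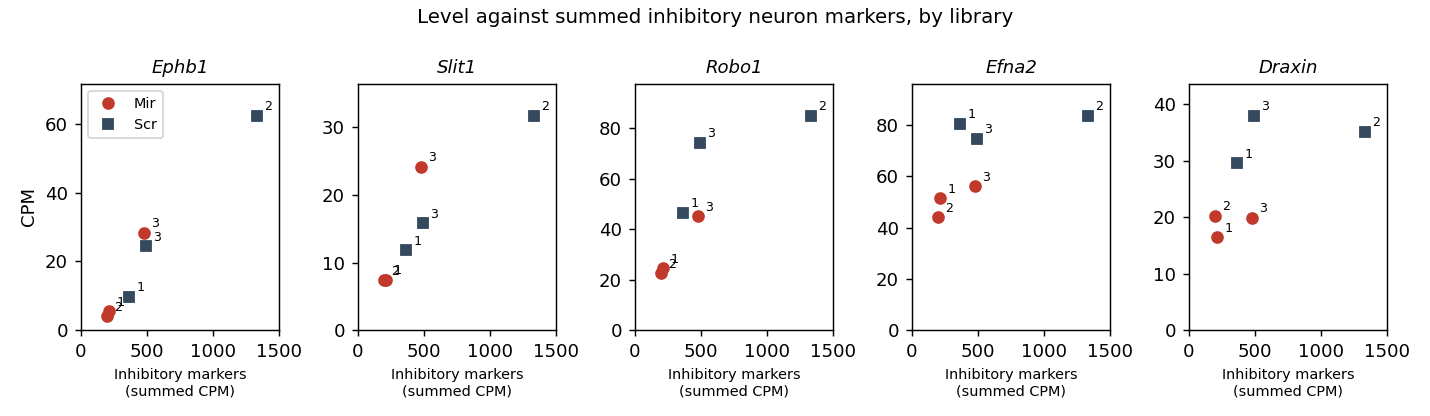
CPM of 5 guidance genes against the summed CPM of 10 inhibitory neuron markers in each library, with Mir as circles, Scr as squares and replicate numbers beside the points. Marker sums run from 201 to 475 CPM in Mir and from 364 to 1332 CPM in Scr, and the part of these cells in the 5 genes was not tested.

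Other genes of these pathways were read from a list of 13 further ligands and co-receptors and 27 intracellular effectors. Of the 39 tested, none passed edgeR after adjustment, and 1 was higher and 7 lower at an unadjusted p under 0.05, beside 6.57% and 7.93% of all genes tested. Gpc1, the cell-surface proteoglycan glypican-1 that binds Slits, was at 270.9 ± 38.5 CPM in Mir and 171.4 ± 18.1 CPM in Scr (SD, n = 3 each), a log2 fold change of 0.66 ± 0.13. Its adjusted p was 0.178 in edgeR and 0.000708 in DESeq2. Trio, which acts downstream of Dcc, was at 50.8 ± 0.0781 CPM in Mir and 71.3 ± 1.97 CPM in Scr, a log2 fold change of -0.49 ± 0.08. Its adjusted p was 0.167 in edgeR and 0.000552 in DESeq2. On the log2 fold change scale its relative Kalrn was at -0.48 ± 0.14, and the actin regulator Enah at -0.27 ± 0.10. Lrrc4c, the receptor of netrin-G1, was at -0.54 ± 0.15, and Adam10, a protease that cleaves ephrins, at -0.36 ± 0.12. Flrt2, a ligand of Unc5 receptors, was at -1.33 ± 0.50 with overlapping groups. The groups did not overlap for Gpc1, Trio, Kalrn, Lrrc4c, Adam10 and Enah, among 7 such genes of the 39, where 20% of all genes tested did not overlap.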

How the data were processed

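Per the labels' protocols, libraries were made with the SMART-seq v4 kit, which does not mark strand, and read as 50 bp single reads. HISAT2 2.1.0, HTSeq 0.11.0, DESeq2 1.18.1 and the build mm10 (GRCm38) are named in the submitters' processing notes. The sources used here do not give the annotation, the strand setting or how reads with several matches were handled. The deposited values are whole-number read counts per gene, without normalization; 5 summary lines that name no gene were left out, and 21.9 to 23.6% of listed reads were in genes.

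Counts were tested with edgeR 4.0.16 in R 4.3.3 (quasi-likelihood F test, two-sided, group as sole term, trimmed mean of M values, filterByExpr), adjusted over 16897 genes, threshold 0.05. DESeq2 1.42.0 and limma 3.58.1 (voom) were alternatives, among others given in the closing section. The fits were tested on simulated data. Fold changes are Mir over Scr ± standard error from the F statistic. Levels per kb use the exon union of GENCODE M21. Within each group, pairs of libraries gave chi-square values of 8.01 to 28.0 times their degrees of freedom, more than sampling noise. These values cannot tell separate pools from repeated libraries of the same pool. Each library counted as a sample because each had a separate pool of embryos.

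The members and lists were chosen with earlier results of these data known. Values in every library are given for members with an unadjusted p under 0.05 and for the 2 members of highest level per length in each class, and further genes of the pathways are named at an unadjusted p under 0.05, at most 6 in each direction; the per-library values of Ephb1, Unc5a and Ntn1 were added after their values were seen.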

Additional observations from a re-analysis of the deposited data

How the results depend on the processing

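Over all genes, edgeR called 0 higher and 1 lower. DESeq2 called 247 and 333, limma-voom 0 and 0, and edgeR without a filter on low counts 15 and 16. Without single libraries edgeR called 0 higher and 0 to 2 lower, and without Scr replicate 2 and Mir replicate 3, chosen after seeing the data, 10 and 19. No edgeR or limma-voom setting called a guidance gene. DESeq2 called 1 higher and 3 lower with all libraries, 0 to 2 higher and 2 to 5 lower without single libraries, and 3 and 4 without Scr replicate 2 and Mir replicate 3; Efna2 and Draxin were called in each. The higher count was 2 without Mir replicate 3 or Scr replicate 1 and 0 without each other library; the lower count was 5 without Mir replicate 3.

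Labels share replicate numbers. Deviations of same-numbered libraries had correlations of 0.25, -0.15 and -0.09 for numbers 1, 2 and 3. Pairs of unlike number ran from -0.33 to 0.36. No steady pairing by number was seen, though so few values cannot exclude one. With the replicate block edgeR called 0 genes higher and 0 lower.

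Class medians without single libraries ran from -0.0752 to 0.33 for Eph receptors, -0.41 to -0.0651 for ephrins, -0.56 to 0.00479 for Slits, -0.72 to -0.48 for Robos, -0.91 to 0.26 for netrins with draxin, -0.23 to 0.0888 for netrin receptors and -0.21 to -0.013 for repulsive guidance molecules. The low-count filter was rerun without each library, so the genes behind a median can differ between these fits. Without a filter the medians were -0.59 for Slits and -1.14 for Robos, and limma-voom gave -0.37 for netrins. Without Scr replicate 2 and Mir replicate 3 the medians were -0.13 for ephrins and -0.88 for netrins.

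The 7 members with an unadjusted p under 0.05 kept their direction in all 13 alternatives. They were picked by that p in the same libraries, and for 6 of them the groups did not overlap. Leaving out libraries could hardly reverse those 6, so the kept direction adds no support. Members near 0 changed sign. Without Scr replicate 2 and Mir replicate 3 the values were -0.05 for Efnb2, 0.10 for Robo2, -0.14 for Ntn4, 0.0864 for Neo1 and 0.17 for Rgmb, and Robo2 was at 0.0105 without a filter. Without single libraries they ran from -0.0567 to 0.0714 for Efnb2, -0.16 to 0.12 for Robo2, -0.00942 to 0.37 for Ntn4, -0.22 to 0.00487 for Neo1, -0.11 to 0.11 for Rgmb and -0.43 to 0.0424 for Rgma. The causes were not tested. Single libraries were not tested as outliers, and at 3 libraries a group scarce genes such as Ntn1 cannot be placed.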
